A study of Mus musculus with 8 samples.

Results

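The Cyp4a genes encode cytochrome P450 enzymes of the endoplasmic reticulum that hydroxylate fatty acids at the omega carbon. The 6 genes described here, Cyp4a10, Cyp4a12a, Cyp4a12b, Cyp4a14, Cyp4a31 and Cyp4a32, were taken by symbol from the 34450 genes of a table of mouse kidney RNA levels. They were chosen with their FPKM in the groups below already known, so their difference between these groups is given as a description with no test. All 6 passed a filter of a mean of at least 0.5 FPKM over the 8 libraries, Cyp4a32 only through its hypoxia values (mean 3.72 FPKM after hypoxia and 0.347 FPKM after normoxia).

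Kidneys were taken from 8-week-old C57BL/6J mice on day 3 of recovery from ischaemia-reperfusion injury (IRI), in which renal blood flow is stopped and restored and the tubules are the main site of damage. The HxIRI group (4 libraries, numbered 1 to 4) was exposed to hypoxia before the injury, and the IRI group (4 libraries, numbered 5 to 8) was kept in normoxia before it. All 8 kidneys were injured, and no uninjured kidney is analysed here. Sex is not given in the labels used here, nor do they say that the libraries are from separate mice, so any p-value reflects only how these libraries scatter, and that scatter may be technical.

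Omega-hydroxylation is the first step of a side route of fatty acid breakdown, in which the new hydroxyl group is oxidised to a carboxyl group and the resulting dicarboxylic acid is shortened in peroxisomes. In the kidney the Cyp4a enzymes are made mainly in the proximal tubule. Cyp4a10 and Cyp4a14 act on medium-chain acids such as lauric acid and are textbook targets of the nuclear receptor PPAR alpha, which fasting and fibrate drugs activate. Cyp4a12a is the main producer of 20-HETE, a vasoactive product of arachidonic acid, in the mouse kidney, and its expression is induced by androgen.

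All 6 genes lie within 322.6 kb of chromosome 4 (GRCm38, GENCODE M21 annotation). Cyp4a12a (ENSMUSG00000066071) spans chr4:115299046-115332815 and Cyp4a12b (ENSMUSG00000078597) chr4:115411624-115439034. Cyp4a14 (ENSMUSG00000028715) spans chr4:115486200-115496142 and is the only member on the minus strand. Cyp4a10 (ENSMUSG00000066072) spans chr4:115518264-115533649, next to Cyp4a31 (ENSMUSG00000028712) at chr4:115563649-115579015. Cyp4a32 (ENSMUSG00000063929) spans chr4:115600969-115621602 and is followed by Cyp4b1, a P450 gene outside the subfamily, at chr4:115624725-115647723. A further annotated gene of the cluster, Cyp4a30b, was listed at no more than 0.06 FPKM in any library.

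The coding sequences fall into a set of 3, a pair and a single gene. Over the aligned coding bases Cyp4a10 was 97.2% identical to Cyp4a32 and 96.6% identical to Cyp4a31, and Cyp4a12a was 98.5% identical to Cyp4a12b. Cyp4a14 was between 75.8% and 76.8% identical to the other members. The stretch around the haem-binding cysteine, which holds the iron of every P450, is shown for all 6 because it sets these groups apart within a conserved stretch. It covers 60 coding bases, 5′ to 3′, from base 1330 of Cyp4a10, Cyp4a31 and Cyp4a32, base 1327 of Cyp4a12a and Cyp4a12b and base 1324 of Cyp4a14, counted from the start codon in the GENCODE M21 transcripts. Capitals mark the 10 positions that are not the same in all 6 members.
Cyp4a10: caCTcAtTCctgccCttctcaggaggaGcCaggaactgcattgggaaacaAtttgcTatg
Cyp4a31: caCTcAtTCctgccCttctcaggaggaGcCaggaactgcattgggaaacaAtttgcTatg
Cyp4a32: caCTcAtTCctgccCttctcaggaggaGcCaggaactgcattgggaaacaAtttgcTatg
Cyp4a12a: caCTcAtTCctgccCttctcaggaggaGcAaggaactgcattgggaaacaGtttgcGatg
Cyp4a12b: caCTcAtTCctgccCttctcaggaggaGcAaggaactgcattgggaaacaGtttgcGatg
Cyp4a14: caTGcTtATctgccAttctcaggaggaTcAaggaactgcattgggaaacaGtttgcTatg

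Cyp4a31 and Cyp4a32 matched Cyp4a10 at every base of this stretch, the Cyp4a12 genes differed from it at 3 positions and Cyp4a14 at 9. A second stretch is shown because it has the most varying positions within the set of 3, at coding bases 200 to 259, with the 9 varying positions in capitals. In it Cyp4a31 differed from Cyp4a10 at 2 positions and Cyp4a32 at 9, so it sets apart mainly Cyp4a32.
Cyp4a10: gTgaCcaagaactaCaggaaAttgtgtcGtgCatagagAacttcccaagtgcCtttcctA
Cyp4a31: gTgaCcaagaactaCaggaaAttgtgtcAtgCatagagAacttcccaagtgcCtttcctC
Cyp4a32: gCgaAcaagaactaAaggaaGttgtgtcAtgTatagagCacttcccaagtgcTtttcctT

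The same choice for the Cyp4a12 pair gave coding bases 624 to 683, where only 4 positions (capitals) varied.
Cyp4a12a: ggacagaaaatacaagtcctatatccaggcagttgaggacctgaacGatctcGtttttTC
Cyp4a12b: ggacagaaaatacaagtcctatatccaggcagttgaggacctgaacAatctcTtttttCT

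This likeness bears on how far the values of single members can be trusted. Of all 100-base windows of the transcripts, 35.8% of those of Cyp4a12a and 36.2% of those of Cyp4a12b were shared with another member. The share was 20.1% for Cyp4a32, 12.7% for Cyp4a10 and 8.2% for Cyp4a31, and none of the 2397 windows of Cyp4a14 was shared. For 50-base windows the shares were 48.9% for Cyp4a12a, 49.4% for Cyp4a12b, 46.8% for Cyp4a32, 30.5% for Cyp4a10, 20.1% for Cyp4a31 and again 0 for Cyp4a14. Read length and the counting of reads with several matches are not stated in any source used here. The values of Cyp4a14 therefore rest on its own sequence, whereas those within the Cyp4a12 pair and within the set of Cyp4a10, Cyp4a31 and Cyp4a32 are uncertain.

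The values are FPKM (fragments per kilobase of transcript, relative to all mapped fragments of the library), which are per length and can be compared between genes. Depth was estimated at 8840000 to 14200000 fragments in the hypoxia libraries and 9240000 to 14700000 in the normoxia libraries. Ribosomal transcripts took 21.5% to 67.4% of the assigned fragments in the hypoxia libraries and 13.5% to 72.5% in the normoxia libraries. Of 14444 genes tested with limma, 131 (0.907%) had an adjusted p under 0.05, of which 44 (0.305% of those tested) were higher after hypoxia and 87 (0.602%) lower, so that 33.6% of the calls were higher. At an unadjusted p under 0.05, a threshold used below beside lists without a call, 2.52% of tested genes were higher and 6.84% lower. TMM scaling divides each library by a single factor, set from a trimmed mean of its log gene ratios to a reference library. It gave 170 higher (1.18%) and 173 lower (1.2%), so that 49.6% of the calls were higher. With normoxia library 5 left out as well, the shares of genes higher and lower under TMM scaling were 4.43% and 4.22%. With hypoxia library 2 left out instead, TMM scaling gave only 9 higher (0.0624%) and 1 lower. Log2 changes below are differences of group means of log2(FPKM + 0.5), hypoxia minus normoxia, a scale that understates the change of low genes. The median over all tested genes was -0.14 as deposited and 0.034 with TMM scaling. For the members and their sums the SE of a log2 change is computed from their own group SDs. For all other genes it is the moderated SE of limma, so the SEs of members and of other genes are not alike.

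Cyp4a14 was high after hypoxia in every library and low after normoxia in every library. Its FPKM was 30.5, 605, 41.1 and 33.6 in hypoxia libraries 1 to 4, against 6.98, 3.63, 0.24 and 0.74 in normoxia libraries 5 to 8. The groups did not overlap, since the lowest hypoxia library lay above the highest normoxia library, and hypoxia library 2 stood far above the other hypoxia libraries. Across all tested genes 1.86% had hypoxia libraries that all lay above the normoxia libraries and 3.06% had them all below. Cyp4a14 and Cyp4a32 were the 2 members above and no member was below, a count from which nothing is read because the members were chosen on these values. The hypoxia mean was 177 ± 285 FPKM and the normoxia mean 2.90 ± 3.10 FPKM (SD, 4 libraries each), and the log2 change was 4.96 ± 1.28 (SE). Without hypoxia library 2 the hypoxia mean was 35.1 FPKM and the log2 change 3.94. In bulk tissue, fewer cells of a type and less RNA per cell cannot be told apart. The lowest normoxia values rest on few fragments, an estimated 9 in normoxia library 7 and 18 in normoxia library 8.

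Cyp4a10, the gene next to Cyp4a14 and the other PPAR alpha target of the family, was spread widely within both groups. Its FPKM was 33.6, 399, 33.6 and 25.9 in hypoxia libraries 1 to 4, against 64.3, 15.3, 2.30 and 1.66 in normoxia libraries 5 to 8. The groups overlapped because normoxia library 5 lay above 3 hypoxia libraries, while the other normoxia libraries lay below all of them. The log2 change was 2.74 ± 1.47 (SE), and 1.82 without hypoxia library 2.

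Cyp4a31 followed Cyp4a10 across the libraries with a narrower range. Its FPKM was 41.8, 181, 29.0 and 29.3 in hypoxia libraries 1 to 4, against 48.2, 22.1, 8.33 and 3.6 in normoxia libraries 5 to 8. Again normoxia library 5 lay among the hypoxia libraries and hypoxia library 2 stood above the rest. The log2 change was 1.85 ± 1.0 (SE), and 1.24 without hypoxia library 2.

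Cyp4a32 was the lowest member in 7 of the 8 libraries and resembled Cyp4a14 in its separation of the groups. Its FPKM was 0.90, 11.6, 0.93 and 1.48 in hypoxia libraries 1 to 4, against 0.52, 0.57, 0.18 and 0.12 in normoxia libraries 5 to 8. The groups did not overlap, but outside hypoxia library 2, with an estimated 252 fragments, each value rested on between 2 and 21. The log2 change was 1.67 ± 0.77 (SE), and 0.94 without hypoxia library 2. Since Cyp4a32 shares much of its sequence with Cyp4a10, which was at 25.9 FPKM or more in every hypoxia library, how far its counts came from Cyp4a10 reads was not tested.

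**Figure D1:**
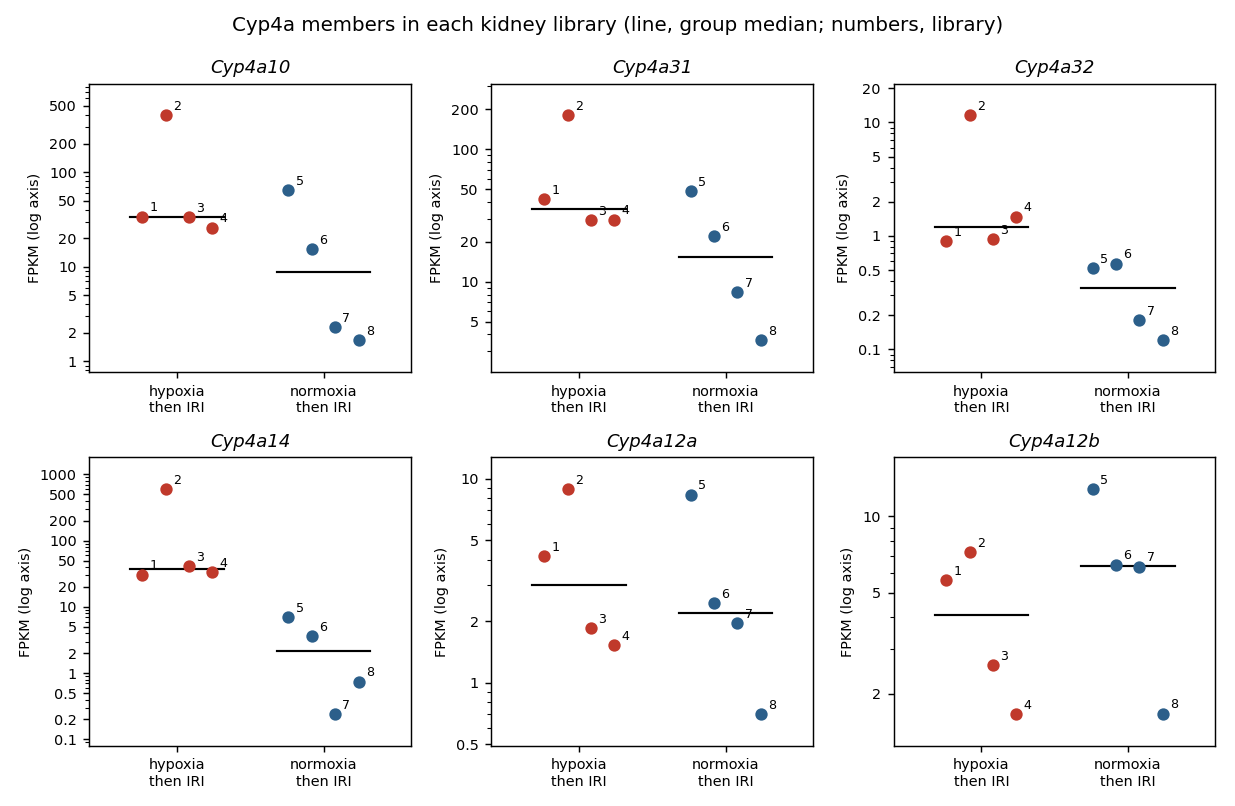
FPKM on a log axis of each Cyp4a gene in each library, with hypoxia then IRI (libraries 1 to 4) left of normoxia then IRI (libraries 5 to 8). Each point is a library with its number and each line a group median; Cyp4a14 and Cyp4a32 have groups that do not overlap, and library 2 is the highest hypoxia library in all 6 panels.

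The Cyp4a12 pair showed no such separation. Cyp4a12a, the androgen-induced arachidonic acid hydroxylase, had 4.16, 8.91, 1.85 and 1.53 FPKM in hypoxia libraries 1 to 4, against 8.33, 2.46, 1.95 and 0.70 FPKM in normoxia libraries 5 to 8. Its highest values, in hypoxia library 2 and normoxia library 5, were close to each other, and the ranges of the groups lay almost on top of one another. The log2 change was 0.36 ± 0.78 (SE), and -0.07 without hypoxia library 2 or without normoxia library 8, so it has no stable direction.

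Cyp4a12b had 5.61, 7.22, 2.59 and 1.66 FPKM in hypoxia libraries 1 to 4, against 12.8, 6.44, 6.33 and 1.67 FPKM in normoxia libraries 5 to 8. Normoxia library 5 was the highest of all 8, and the lowest libraries of the groups were equal to within 0.01 FPKM. The log2 change was -0.53 ± 0.69 (SE), and 0.11 with TMM scaling without normoxia library 5. With the pair added together the summed level averaged 8.38 ± 5.90 FPKM in the hypoxia libraries and 10.2 ± 7.88 FPKM in the normoxia libraries (SD, n = 4 each), with -0.18 ± 0.78 (SE) as the log2 change.

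Summed over the 6 genes, the family reached 117, 1212, 109 and 93.5 FPKM in hypoxia libraries 1 to 4, against 141, 50.5, 19.3 and 8.49 FPKM in normoxia libraries 5 to 8. Normoxia library 5 lay above 3 hypoxia libraries, so the groups overlapped. The log2 change of the sum was 2.54 ± 1.23 (SE), and 1.66 without hypoxia library 2. Because every library was scaled to its own total, the level of the whole family also moves with the ribosomal share, and what part that share had in these values was not tested.

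The order of the members by median level differed between the groups, mainly in the place of Cyp4a14. After hypoxia the medians were 37.4 FPKM for Cyp4a14, 35.5 for Cyp4a31, 33.6 for Cyp4a10, 4.10 for Cyp4a12b, 3.00 for Cyp4a12a and 1.21 for Cyp4a32. After normoxia they were 15.2 FPKM for Cyp4a31, 8.79 for Cyp4a10, 6.38 for Cyp4a12b, 2.21 for Cyp4a12a, 2.19 for Cyp4a14 and 0.35 for Cyp4a32. After hypoxia the ranges of neighbours in the order overlapped, except that Cyp4a10 lay above Cyp4a12b in all libraries. After normoxia the ranges of all neighbours overlapped. Compared within libraries, Cyp4a12b lay above Cyp4a12a and Cyp4a14 above Cyp4a32 in every normoxia library. The other neighbours changed places between normoxia libraries.

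The make-up of the family is less dependent on the scaling of a library, since it compares members within it. Cyp4a14 took an estimated 28.3%, 53.8%, 40.7% and 38.8% of the family's fragments in hypoxia libraries 1 to 4, against 5.56%, 7.90%, 1.34% and 9.46% in normoxia libraries 5 to 8. The Cyp4a12 pair took 8.40%, 1.33%, 4.07% and 3.41% in hypoxia libraries 1 to 4, against 15.6%, 17.9%, 42.7% and 28.0% in normoxia libraries 5 to 8. Neither of these shares overlapped between the groups. Shares of a whole are not independent, and the summed FPKM of the Cyp4a12 pair overlapped between the groups. Cyp4a10, Cyp4a31 and Cyp4a32 together took 44.9% to 63.3% in the hypoxia libraries and 55.9% to 78.9% in the normoxia libraries, and these ranges overlapped.

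**Figure D2:**
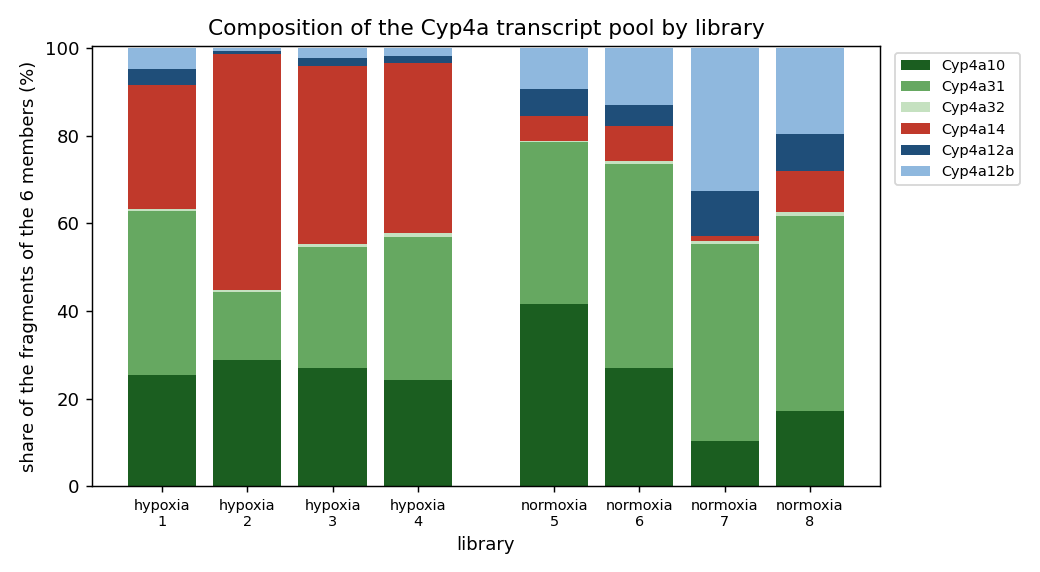
Estimated share of the family's fragments in percent (FPKM multiplied by exon length) held by each Cyp4a gene, 1 bar per library, hypoxia then IRI left of normoxia then IRI. Cyp4a14 holds 28.3% to 53.8% of the bar in the hypoxia libraries and 1.34% to 9.46% in the normoxia libraries.

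The ratio of Cyp4a14 to its neighbour Cyp4a10 was 0.906, 1.52, 1.22 and 1.30 in hypoxia libraries 1 to 4, against 0.109, 0.237, 0.104 and 0.446 in normoxia libraries 5 to 8. Both genes are high in hypoxia library 2, and their ratio was highest there too. The median ratio was 7.29 times higher after hypoxia, and the groups did not overlap. The ratio of Cyp4a14 to Cyp4a31 was 0.729, 3.34, 1.42 and 1.15 in hypoxia libraries 1 to 4, against 0.145, 0.164, 0.0288 and 0.206 in normoxia libraries 5 to 8, so that hypoxia library 2 stood above the rest. The ratio of Cyp4a31 to Cyp4a10 was 0.453 to 1.24 in the hypoxia libraries and 0.750 to 3.62 in the normoxia libraries, with overlap. The ratio of Cyp4a12a to Cyp4a12b was 0.714 to 1.23 in the hypoxia libraries and 0.308 to 0.650 in the normoxia libraries, without overlap. This last ratio is uncertain, since 48.9% of the 50-base windows of Cyp4a12a are shared with another member.

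**Figure D3:**
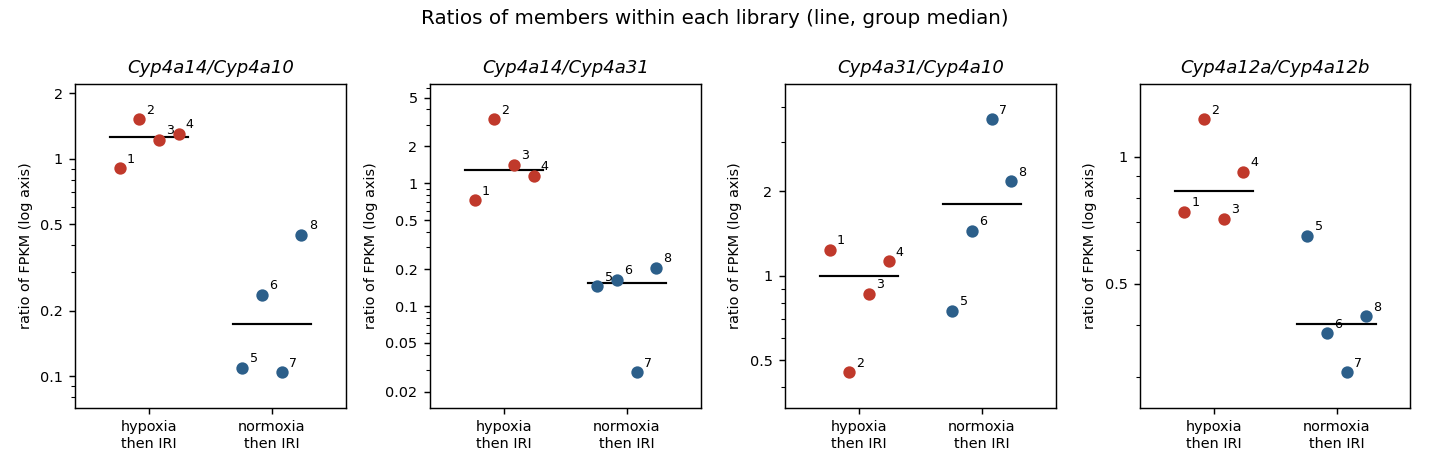
Ratios of FPKM between Cyp4a genes in each library on a log axis, hypoxia then IRI left of normoxia then IRI, with group medians as lines. The ratio of Cyp4a14 to Cyp4a10 is 0.906 to 1.52 in the hypoxia libraries and 0.104 to 0.446 in the normoxia libraries.

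The listed markers of the proximal tubule, where these enzymes are made, gave no call as deposited. The list does not hold every gene of this segment. Among 22 proximal tubule markers none passed at an adjusted p under 0.05 with limma in either direction, and at an unadjusted p under 0.05 4 were higher and 0 lower, beside 2.52% and 6.84% of all genes. Under TMM scaling without normoxia library 5, 8 rose (4.43% of all genes). Aqp1, the water channel gene of this segment, passed with quantile normalization (adjusted p = 0.0181) and with scaling to protein-coding genes (adjusted p = 0.0273). The median log2 change of the list was 1.04, and 21 were above 0. The summed level was 3679 to 18247 FPKM in the hypoxia libraries and 593 to 12414 FPKM in the normoxia libraries, much of it from the androgen-regulated gene Kap. Without Kap it was 1601 to 6336 FPKM in the hypoxia libraries and 415.01 to 3001.3 FPKM in the normoxia libraries. Slc34a1, the phosphate transporter of this segment, had 343, 369, 199 and 214 FPKM in hypoxia libraries 1 to 4, against 340.0, 181, 155 and 37.6 FPKM in normoxia libraries 5 to 8 (log2 change 0.97 ± 0.85, SE, adjusted p = 0.898).

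The ratio of Cyp4a14 to Slc34a1 was 0.0889, 1.64, 0.207 and 0.157 in hypoxia libraries 1 to 4, against 0.0205, 0.0201, 0.00155 and 0.0197 in normoxia libraries 5 to 8. These ratios use the values by which the members were chosen and are a description; the part of tubule content in the Cyp4a14 levels was not tested. The ratio of Cyp4a10 to Slc34a1 was 0.0981 to 1.08 in the hypoxia libraries and 0.0148 to 0.189 in the normoxia libraries, with overlap. The ratio of Cyp4a12a to Slc34a1 was 0.00715 to 0.0242 in the hypoxia libraries and 0.0126 to 0.0245 in the normoxia libraries, also with overlap.

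Some genes of tubular injury fell after hypoxia, 5 of 14 tested, and 0 rose (0.602% of all tested genes fell), with a median log2 change of -2.60. Timp1, an inhibitor of matrix-degrading proteases, had a log2 change of -4.03 ± 0.88 (SE, adjusted p = 0.0252), a call lost with TMM scaling (adjusted p = 0.079) and without normoxia library 5 (adjusted p = 0.125). Sox9, a transcription factor of regenerating tubule cells, had a log2 change of -2.14 ± 0.45 (adjusted p = 0.0221), and the other 3 that fell were S100a6, Cd44 and the keratin gene Krt20. Without normoxia library 7 all 5 calls were lost, with adjusted p-values between 0.122 for Sox9 and 0.286 for Krt20. All 5 were also lost with TMM scaling without hypoxia library 2, with adjusted p-values between 0.0725 and 0.194. Krt20, S100a6 and Cd44 lost theirs without hypoxia library 3 or without hypoxia library 4 as well. With TMM scaling 6 of the 14 injury genes fell (1.2% of all genes), and 11 did so when normoxia library 5 was also left out (4.22%). At an unadjusted p under 0.05 as deposited, 13 were lower and 0 higher (6.84% of all genes were lower). All 10 macrophage markers had negative log2 changes with a median of -1.72, and none passed with limma, although 8 were lower and 0 higher at unadjusted p under 0.05 (6.84% of all genes were lower). With TMM scaling 3 fell (1.2% of all genes), and 8 did so when normoxia library 5 was also left out (4.22%). The part that injury or immune cells had in the Cyp4a values was not tested.

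Among the other genes of the Cyp4 family, which hydroxylate fatty acids or eicosanoids at or near the omega end, none of 6 tested passed with limma in either direction, with 1 higher and 1 lower at unadjusted p under 0.05 (2.52% and 6.84% of all genes). Cyp4b1, the neighbour of Cyp4a32, had 212, 381, 117 and 92.7 FPKM in hypoxia libraries 1 to 4, against 106, 59.5, 51.1 and 15 FPKM in normoxia libraries 5 to 8. It overlapped only in that normoxia library 5 lay above hypoxia library 4 (log2 change 1.86 ± 0.85, SE, adjusted p = 0.481). It passed with quantile normalization (adjusted p = 0.0185), with scaling to protein-coding genes (adjusted p = 0.0446) and with TMM scaling without normoxia library 5 (adjusted p = 0.0147). Cyp4f18, a leukotriene hydroxylase gene of myeloid cells, had a log2 change of -1.08 ± 0.46 (SE, adjusted p = 0.408). The median of the 6 genes was -0.35.

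The enzymes that pass electrons to P450s gave no call as deposited. None of 6 tested passed with limma, and at an unadjusted p under 0.05 there were 0 higher and 0 lower. Por, which encodes the reductase that feeds every microsomal P450, had 27.6, 36.3, 15.03 and 13.4 FPKM in hypoxia libraries 1 to 4, against 18.7, 16.4, 28.4 and 8.75 FPKM in normoxia libraries 5 to 8. Its log2 change was 0.34 ± 0.71 (SE, adjusted p = 0.999). Cyb5a, a cytochrome b5 gene, had a log2 change of 0.84 ± 0.79 (SE, adjusted p = 0.914) and passed with quantile normalization (adjusted p = 0.0473) and with TMM scaling without normoxia library 5 (adjusted p = 0.0379).

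Downstream of omega-hydroxylation, 1 of 12 tested genes rose and 0 fell, beside 0.305% of all tested genes that rose. It was Acsm3, a medium-chain acyl-CoA synthetase gene, with 27.6, 27.4, 6.59 and 9.04 FPKM in hypoxia libraries 1 to 4, against 2.86, 2.09, 0.60 and 0.25 FPKM in normoxia libraries 5 to 8. The groups did not overlap and hypoxia library 2 did not stand out (log2 change 3.21 ± 0.63, SE, adjusted p = 0.0148). The call was lost without normoxia library 7 (adjusted p = 0.151). It was also lost with TMM scaling without hypoxia library 2 (adjusted p = 0.096) and without the filter (adjusted p = 0.33). Aldh3a2, the fatty aldehyde dehydrogenase that finishes omega-oxidation, had a log2 change of 0.62 ± 0.64 (SE, adjusted p = 0.93).

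The nuclear receptor PPAR alpha drives Cyp4a10 and Cyp4a14. Of 12 genes of this receptor, its partners and its cofactors none passed with limma, although all 12 had log2 changes above 0 (median 0.39). Of these, 1 was higher and 0 lower at unadjusted p under 0.05 (2.52% and 6.84% of all genes). Ppara itself had 1.40, 5.31, 3.77 and 3.36 FPKM in hypoxia libraries 1 to 4, against 1.39, 3.13, 1.51 and 1.38 FPKM in normoxia libraries 5 to 8. Its ranges overlapped at hypoxia library 1 and normoxia library 6 (log2 change 0.70 ± 0.50, SE, adjusted p = 0.818). Ppargc1a, a coactivator of mitochondrial and fatty acid oxidation genes, had 6.04 to 10.8 FPKM in the hypoxia libraries and 1.04 to 3.96 FPKM in the normoxia libraries (log2 change 1.48 ± 0.56, adjusted p = 0.291, and adjusted p = 0.0318 with TMM scaling without normoxia library 5).

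Other target genes of PPAR alpha gave a different count under each scaling. Of 40 listed genes 36 were tested, none passed with limma in either direction, and at an unadjusted p under 0.05 there were 7 higher and 0 lower, beside 2.52% and 6.84% of all genes. Their median log2 change was 0.78 and 31 of the 36 were above 0. With TMM scaling 4 rose (1.18% of all genes), namely Crot, Acadm, Ehhadh and Cd36. With scaling to protein-coding genes 5 rose (1.02% of all genes) and with quantile normalization 8 (1.94%). With TMM scaling without normoxia library 5, 12 rose (4.43% of all genes), and with TMM scaling without hypoxia library 2 there were 0 (0.0624%).

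Ehhadh, a peroxisomal enzyme of fatty acid oxidation, had 38.1, 253, 27.9 and 27.1 FPKM in hypoxia libraries 1 to 4, against 6.39, 16.5, 10.95 and 4.27 FPKM in normoxia libraries 5 to 8. The groups did not overlap and hypoxia library 2 stood far above the rest, as for Cyp4a14 (log2 change 2.56 ± 0.80, SE, adjusted p = 0.146, and adjusted p = 0.0456 with TMM scaling). The targets Plin2 and Ucp2 went the other way, with log2 changes of -1.35 ± 0.72 (adjusted p = 0.624) and -1.40 ± 0.79 (adjusted p = 0.666).

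**Figure D4:**
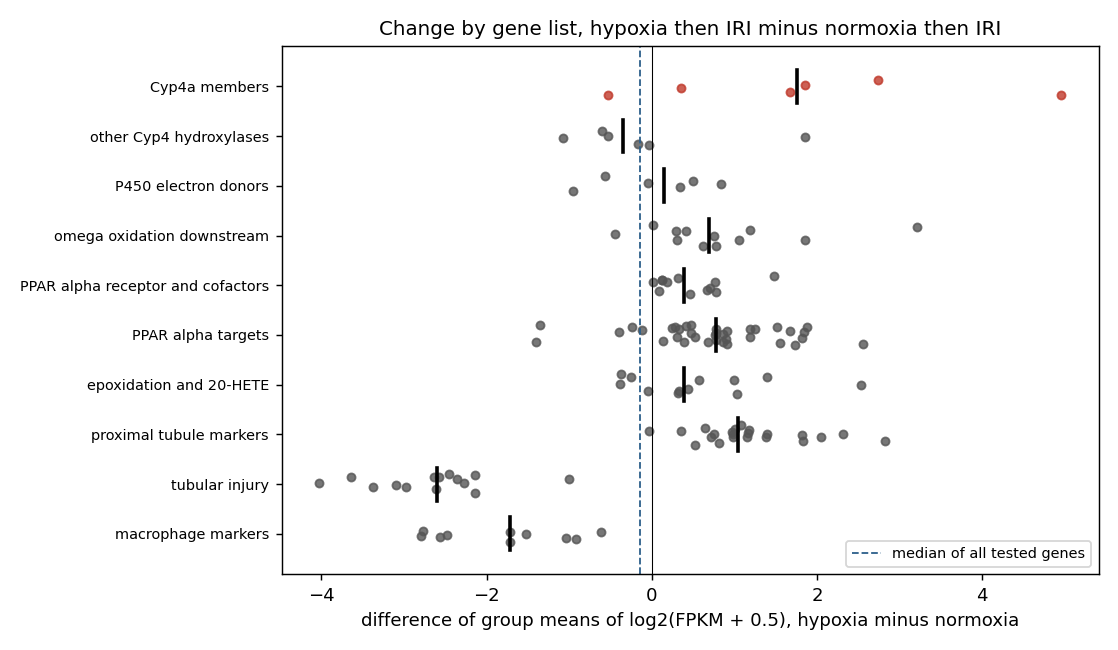
Log2 change, hypoxia minus normoxia (difference of group means of log2(FPKM + 0.5)), of each tested gene by list, with the dashed line at the median of all 14444 tested genes. The Cyp4a members are shown as a description; the PPAR alpha targets have a median of 0.78 and the tubular injury genes of -2.60.

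Hypoxia library 2 held the highest hypoxia level of all 6 members, and its difference from the mean of the other hypoxia libraries was compared across genes as a description. It was 4.10 for Cyp4a14, 3.67 for Cyp4a10, 2.93 for Cyp4a32 and 2.44 for Cyp4a31 on the log2 scale, at positions 11, 18, 53 and 110 of 14444 genes. All 6 members were over 1, as were 31 of 36 other PPAR alpha targets, beside 31.9% of all tested genes. The median was 2.69 for the members, 1.82 for the other targets and 0.72 for all tested genes.

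Fga and Pck1 were at positions 4 and 9 by the same difference, ahead of Cyp4a14. Pck1, a key enzyme of gluconeogenesis, had 1664 FPKM in this library against 61.0 to 121 FPKM in the remaining hypoxia libraries. Fga, a fibrinogen chain listed as a hepatocyte marker, had 133 FPKM in it against 2.09 to 8.89 FPKM. The 9 tested hepatocyte markers were all over 1 in this library, with a median difference of 2.37, and their part in its values was not tested. Among the untested markers of that list Cps1 and Cyp2c29 were listed at 0 in all 8 libraries and Alb was at no more than 0.56 FPKM. The PPAR alpha receptor and its cofactors had a median difference of 0.03 in this library, proximal tubule markers one of 0.99 and tubular injury genes one of 1.02. The ribosomal share of this library, 21.5%, was the lowest of the hypoxia group, and its part in these values was not tested.

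**Figure D5:**
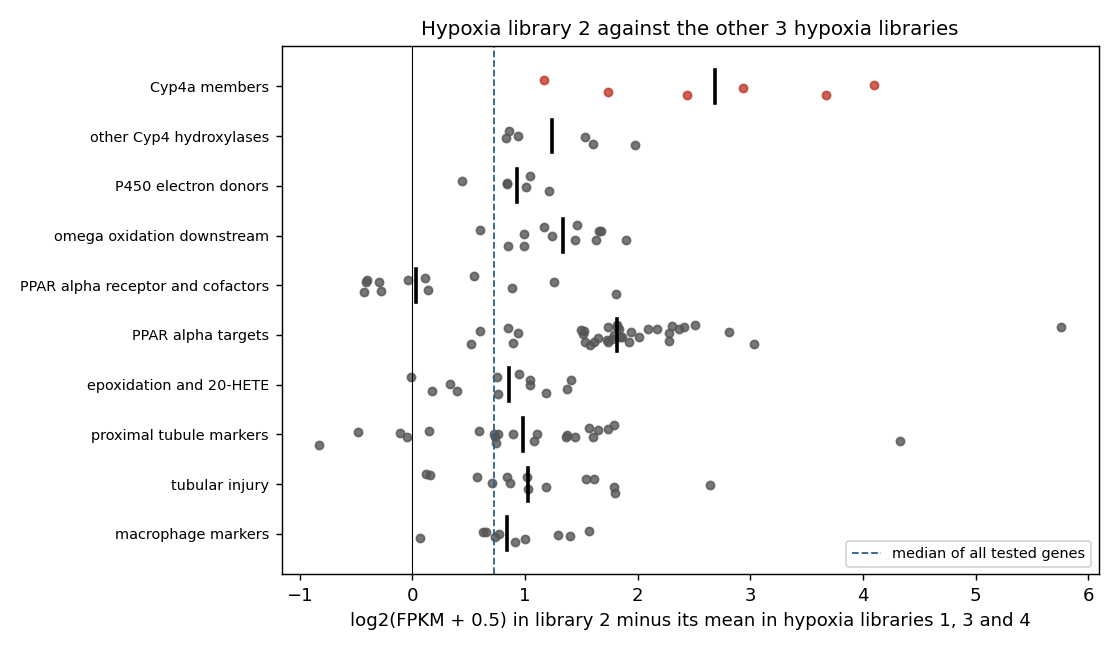
Difference of log2(FPKM + 0.5) between hypoxia library 2 and the mean of hypoxia libraries 1, 3 and 4, for each tested gene by list, with the dashed line at the median of all tested genes, 0.72. The Cyp4a members lie between 1.17 and 4.10 and the other PPAR alpha targets have a median of 1.82.

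Genes that handle arachidonic acid beside Cyp4a12a, by epoxidation or by response to 20-HETE, gave no call in 12 tested with limma, with 1 higher and 0 lower at unadjusted p under 0.05 (2.52% and 6.84% of all genes). The epoxygenase gene Cyp2j11 had 34.6, 48.7, 17.2 and 21.4 FPKM in hypoxia libraries 1 to 4, against 2.73, 8.73, 5.99 and 2.57 FPKM in normoxia libraries 5 to 8. The groups did not overlap (log2 change 2.53 ± 0.67, SE, adjusted p = 0.0681, and adjusted p = 0.0178 with TMM scaling). Ephx2, the hydrolase that inactivates epoxides of arachidonic acid, had a log2 change of 1.0 ± 0.79 (adjusted p = 0.864).

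Genes known to differ between male and female kidneys were also listed, since Cyp4a12a is among the male-biased. Of 11 tested male-biased genes 3 rose and 0 fell, beside 0.305% of all genes that rose (Acsm3, the steroid hydroxylase gene Cyp7b1 and the amino acid transporter gene Slc7a13), with a median log2 change of 1.89. Among 6 listed as female-biased 3 rose and 0 fell (the transporter genes Slc7a12 and Slc22a7 and Cyp2a4), with a median of 2.91. The place of Cyp2d9 in this list is uncertain, and without it 3 of 5 rose with a median of 3.07. Both lists held genes that rose. Sex is not given in the labels used here, and its part in the Cyp4a values was not tested. With TMM scaling the call of Slc7a13 was lost (adjusted p = 0.0542). Slc7a12 had 19.7, 11.9, 11.8 and 15.9 FPKM in hypoxia libraries 1 to 4, against 1.98, 1.13, 0.44 and 0.28 FPKM in normoxia libraries 5 to 8 (log2 change 3.51 ± 0.55, SE, adjusted p = 0.00289). Without normoxia library 7 the other 5 of these 6 genes were no longer called, with adjusted p-values between 0.0962 and 0.25. The same 5 lost their calls with TMM scaling without hypoxia library 2, with adjusted p-values between 0.0647 and 0.148. Kap, an androgen-regulated proximal tubule gene, had a log2 change of 2.05 ± 0.97 (SE, adjusted p = 0.507).

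Other tissues that could contribute RNA were checked by their markers. None of 9 tested hepatocyte markers and none of 7 tested adipocyte markers passed with limma, and at an unadjusted p under 0.05 4 and 0 were higher and none was lower (2.52% of all genes were higher). Under TMM scaling without normoxia library 5, 2 of 8 tested hepatocyte markers rose (4.43% of all genes). Summed hepatocyte markers were 72.9, 330.4, 32.3 and 34.1 FPKM in hypoxia libraries 1 to 4, against 143, 18.0, 20.7 and 8.25 FPKM in normoxia libraries 5 to 8. They were highest in hypoxia library 2 and normoxia library 5, the libraries with the highest Cyp4a sum of each group. The summed proximal tubule markers, with or without Kap, were highest in the same libraries. These libraries also had the lowest ribosomal share of their groups (21.5% and 13.5%). What part any of these had in the Cyp4a values was not tested. Summed adipocyte markers were 11.8 to 67.7 FPKM in the hypoxia libraries and 2.30 to 20.9 FPKM in the normoxia libraries, highest in hypoxia library 3. Of the adrenal markers Cyp11b1, Cyp11b2 and Cyp21a1 were listed at 0 in all 8 libraries. Star was at 0.18 to 0.71 FPKM, and Cyp11a1, Hsd3b1 and Mc2r were at no more than 0.30 FPKM.

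Across the 8 libraries the members also differed in how alike their patterns were. Pearson's r of log2(FPKM + 0.5) was 0.986 between Cyp4a10 and Cyp4a31, 0.922 between Cyp4a14 and Cyp4a32, 0.913 between Cyp4a14 and Cyp4a10, 0.834 between Cyp4a12a and Cyp4a12b and 0.062 between Cyp4a14 and Cyp4a12b. With each group centred on its own mean the last was 0.616. The libraries share their depth, their ribosomal share and the group difference, so these are descriptions.

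Among 10408 genes with a mean of at least 1 FPKM, those whose pattern was most like that of Cyp4a14 included Gpx6 (r = 0.968), Slc22a26 (0.956), Papss2 (0.954) and Dmgdh (0.951). For Cyp4a10 they were Cyp2d9 (r = 0.982), Slc5a10 (0.974), Gnmt (0.955), Hpd (0.955) and Kmo (0.952). For Cyp4a12a they were Selenbp2 (r = 0.986), Pxmp4 (0.985), Hnf4aos (0.983), C8g (0.979) and Myh14 (0.977). All of these are over 8 libraries and the lists of the 3 members have no gene in common.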

How the data were processed

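The authors deposited FPKM per gene and library to 2 decimals, per the file headers, with no recorded scaling between libraries. The labels' protocols give Trizol extraction of kidneys frozen in liquid nitrogen and stranded TruSeq libraries of poly(A) RNA. The submitters' processing notes name HISAT2, StringTie and edgeR without versions or roles, and the genome build is not given in the sources used here. All 34450 identifiers matched GENCODE M21, which supplied symbols, positions, exon lengths and transcript sequences.

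The members and gene lists were chosen with earlier results of these data known. Genes with a mean of at least 0.5 FPKM were compared on log2(FPKM + 0.5) by limma 3.58.1 under R 4.3.3 (two-sided; lmFit, then eBayes with a trended prior), with Benjamini-Hochberg adjustment over all 14444 genes and a threshold of 0.05. The step was tested on simulated data, with 100 genes altered at each of 2 sizes. At a log2 change of 2 only 24 of the altered genes were called, and at a log2 change of 3 there were 67. Among all 96 calls 5 were false. The simulated scatter was drawn separately for each gene, without shifts shared by a whole library. These counts therefore need not hold for the real libraries. A list without a call can still hold genes that changed by such amounts. Named genes were the members, in each of the lists up to 6 passing genes or the 2 with the smallest p, 11 genes fixed by name and the 5 genes most like each of 3 members, and a few more with values behind a count; not all are printed, and a few are not reported here. Depth was estimated from the spacing of low FPKM values in single-exon genes of 300 to 3000 bases, without an interval. Fragments were estimated as FPKM multiplied by exon length. Coding sequences were aligned with Biopython 1.88 (Python 3.11.15). Alternatives were a pseudocount of 0.1 or 1, a filter of 2 FPKM or none, TMM-type scaling (trimming 30% of ratios and 5% of levels), quantile normalization, leaving out each library, TMM scaling without normoxia library 5, and near-identical members added together. Scaling to protein-coding genes and TMM scaling without hypoxia library 2 were chosen after seeing the data.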

Additional observations from a re-analysis of the deposited data

Results flagged for a closer look

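A library was flagged where its gap to the nearest other library of its group was an unusually large part of that group's range. Chance gives this in about 5% of groups of normally distributed values, a rate that need not hold for unlogged FPKM. Flags were given in 5 of 16 checks of the members, their sum and the ratio of Cyp4a14 to Cyp4a10. Nothing is read from that count, because the members were chosen on these values. In other printed genes 16 of 88 checks gave a flag. Hypoxia library 2 gave 14 of all these flags, so they are not independent of one another.

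In hypoxia library 2 the flagged members were Cyp4a10 (399.07 FPKM), Cyp4a14 (604.71), Cyp4a31 (180.81), Cyp4a32 (11.56) and the summed family (1212.28). Neither Cyp4a12 gene was flagged. The flagged genes of fat and glucose metabolism in that library were Ehhadh (253.25 FPKM), Cpt1a (47.28), Acsl1 (34.90), Pdk4 (22.83), Angptl4 (28.26), Vnn1 (45.31), Pck1 (1663.78) and the receptor gene Rxra (28.05), with the fibrinogen gene Fga (133.39). The other hypoxia libraries held 6.89 to 8.89 FPKM of Rxra, and the part of any cause in these values was not tested.

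In normoxia library 5 the flagged values were Slc22a7 at 2.78 FPKM (0.00 to 0.06 in the other normoxia libraries), Serpina1a at 10.92, Timp1 at 220.54 and Angptl4 at 36.36. Normoxia library 6 was flagged for Ppara at 3.13 FPKM, normoxia library 7 for Krt20 at 40.02 FPKM, and hypoxia library 3 for the brown fat gene Ucp1 at 17.00 FPKM.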

How the results depend on the processing

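The members kept the direction of their log2 change in 91 of 95 alternative values. Cyp4a14 lay between 3.94 and 5.53 when each library was left out, Cyp4a10 between 1.82 and 3.69, Cyp4a31 between 1.24 and 2.45, Cyp4a32 between 0.94 and 1.98, Cyp4a12b between -1.03 and -0.15, Cyp4a12a between -0.07 and 0.89 and the family sum between 1.66 and 3.23. The direction reversed for Cyp4a12a (-0.07 without hypoxia library 2 and without normoxia library 8, -0.18 with the pair added) and for Cyp4a12b (0.11 with TMM scaling without normoxia library 5). It also reversed for Pdk4 (-0.15 without hypoxia library 2, up to 0.83 without others) and for Angptl4 (0.28 without normoxia library 5, down to -1.11 without others, and 0.54 with TMM scaling added to that). For the other printed genes, 39 values gained a call, 50 lost one and 652 were the same.

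The counts over all genes moved with each scaling tried. Genes higher and lower were 170 and 173 with TMM scaling, 280 and 349 with quantile normalization (44.5% of calls higher, 33.6% as deposited), 148 and 228 with scaling to protein-coding genes, 638 and 608 with TMM scaling without normoxia library 5, and 9 and 1 with TMM scaling without hypoxia library 2. A pseudocount of 1 gave 47 lower. Without the filter 0 were higher and 0 lower in limma, with 665 and 1356 at an unadjusted p under 0.05. With each library left out the higher genes numbered 11 to 67 (26 without hypoxia library 2, 67 without hypoxia library 4, 11 without normoxia library 7). The lower genes numbered 4 to 237 (155, 44 and 54 without hypoxia library 1, 3 or 4, and 50, 207, 4 and 237 without normoxia library 5, 6, 7 or 8). PPAR alpha targets higher were 4, 8, 5 and 12 under TMM, quantile, protein-coding scaling and TMM scaling without normoxia library 5, and 0 with any library left out. The cause was not tested.

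No paired analysis was possible because the replicate numbers, 1 to 4 and 5 to 8, are not shared between the groups. The depth limits Cyp4a32, and the low normoxia values of Cyp4a14, which rest on few fragments.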
